A study of Homo sapiens with 22 samples.

Results

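The genes described here encode the proteins of the cytosolic ribosome. They were taken as every row of the count table whose symbol has the form of a ribosomal protein of the small subunit (RPS and RPSA) or the large subunit (RPL and RPLP), without pseudogenes. The rule found 77 genes of 35237 rows, 31 of the 40S subunit and 46 of the 60S subunit. All 77 passed the filter on low counts in each fit. The rule used symbols only and no measured value.

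RNA-seq was done on 22 samples from a pair of established neuroblastoma cell lines of human origin, SK-N-AS and GIMEN, both called mesenchymal in the labels. Untreated SK-N-AS cells (n = 4) grew in DMEM with 10% fetal bovine serum, and untreated GIMEN cells (n = 3) in RPMI with 10% serum. The group S1D4 (n = 4) was SK-N-AS given 5 µM PP121 for 4 days in DMEM with 1% serum. The groups S2D4 and S2D30 (n = 4 each) were S1D4 cells moved on to 5 µM PP121 with 100 nM bufalin in Neurobasal medium with B27 supplement, for 4 and 30 days. The group GIMEN D30 (n = 3) was GIMEN given 2.5 µM PP121 with 10 nM bufalin for 30 days in RPMI with 1% serum. No group received a vehicle, serum reduction or bufalin alone. The compounds, the serum and the medium therefore cannot be told apart against untreated cells or between S1D4 and S2D4. S2D4 and S2D30 had the same doses and medium and differed in days of treatment. The lines differed in dose, medium and sequence of treatment as well. PP121 blocks both tyrosine kinases and kinases of the PI3K family, mTOR among them. Bufalin is a toad-venom steroid that inhibits the sodium pump. The labels do not say whether replicates were separate cultures, so the p-values measure only the spread between these libraries, which may be technical.

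Each cytosolic ribosome holds a single copy of most of these proteins, and growing cells make them in matched amounts. Their mRNAs belong to the TOP class, named for a terminal oligopyrimidine tract: transcription starts at a C that is followed by an unbroken run of C and T. When the kinase mTORC1 is inhibited, LARP1 binds such mRNAs, and the 4E-BP proteins hold the cap-binding protein eIF4E. Translation of TOP mRNAs then falls while many of the mRNAs are kept. RNA-seq counts mRNA and does not measure translation.

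The RefSeq start sites (build GRCh38.p14) were searched on the gene's strand, at the start only, for a C followed by C or T alone, with at least 5 such bases in all. Of the 62 genes with a start in the table, 46 (74.2%) had such a tract at one or more starts, against 5.14% of 27305 genes of any kind. Counted by start site, the share was 46 of 77 (59.7%) against 4.07% of 35116 starts. The tracts ran from 5 to 19 bases with a median of 8. Below are the 10 bases before and the 20 from the start for 5 genes with a tract and 5 without, chosen because the results turn on them; capitals mark the pyrimidines that run on from a C at the start.
RPS6 (chr9:19380217-19380246, minus strand): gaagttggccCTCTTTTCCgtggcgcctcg
RPL11 (chr1:23691796-23691825, plus strand): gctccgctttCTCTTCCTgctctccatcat
RPL41 (chr12:56116623-56116652, plus strand): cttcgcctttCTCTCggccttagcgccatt
RPS24 (chr10:78033853-78033882, plus strand): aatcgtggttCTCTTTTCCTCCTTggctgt
RPL34 (chr4:108620566-108620595, plus strand): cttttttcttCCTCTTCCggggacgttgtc
RPL3 (chr22:39319604-39319633, minus strand): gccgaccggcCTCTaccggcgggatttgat
RPL4 (chr15:66504836-66504865, minus strand): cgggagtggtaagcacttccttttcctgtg
RPS4X (chrX:72277229-72277258, minus strand): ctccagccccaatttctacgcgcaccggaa
RPS26 (chr12:56041908-56041937, plus strand): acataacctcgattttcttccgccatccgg
RPS29 (chr14:49598691-49598720, minus strand): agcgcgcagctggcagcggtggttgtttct
In RPL3 the run stopped at 4 bases, under the minimum. In RPL4, RPS4X, RPS26 and RPS29 the annotated start was not a C. A start annotated some bases away from the true one would be counted as without a tract, so no match says only that the letters are not at these sites.

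Totals ran from 16456484 to 37506800 counts per library. The 77 genes took 4.37% to 6.46% of the counts in untreated SK-N-AS, with a mean of 5.53% ± 0.90 (SD, n = 4). The share was 4.01% ± 0.29 in S1D4 (n = 4), 3.33% ± 0.11 in S2D4 (n = 4) and 3.92% ± 0.23 in S2D30 (n = 4). In GIMEN it was 5.04% ± 0.18 untreated and 4.35% ± 0.28 at D30 (n = 3 each). Counting error was small, since the widest Wilson 95% interval of a library spanned 0.0212 percentage points, and intervals of this kind cover counting error only. Each library of S1D4, S2D4 and S2D30 lay below each untreated SK-N-AS library, and each GIMEN D30 library below each untreated GIMEN library. In untreated SK-N-AS the mitochondrially encoded genes took 5.47% to 12.4% of the counts. The groups S1D4, S2D4 and S2D30 had 5.90% to 8.38%, 4.29% to 4.96% and 3.34% to 5.53%, and their part in the shares was not tested beyond leaving them out of the total. Left out, they gave a member share of 6.01% ± 0.99 for untreated SK-N-AS and 4.31% ± 0.35 for S1D4 (SD, n = 4 each), and the groups then overlapped, with S1D4 library 1 at 4.697% and untreated library 4 at 4.625%. The lowest untreated SK-N-AS library, number 4 at 4.372%, lay only just above the highest S1D4 library at 4.357%.

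**Figure D1:**
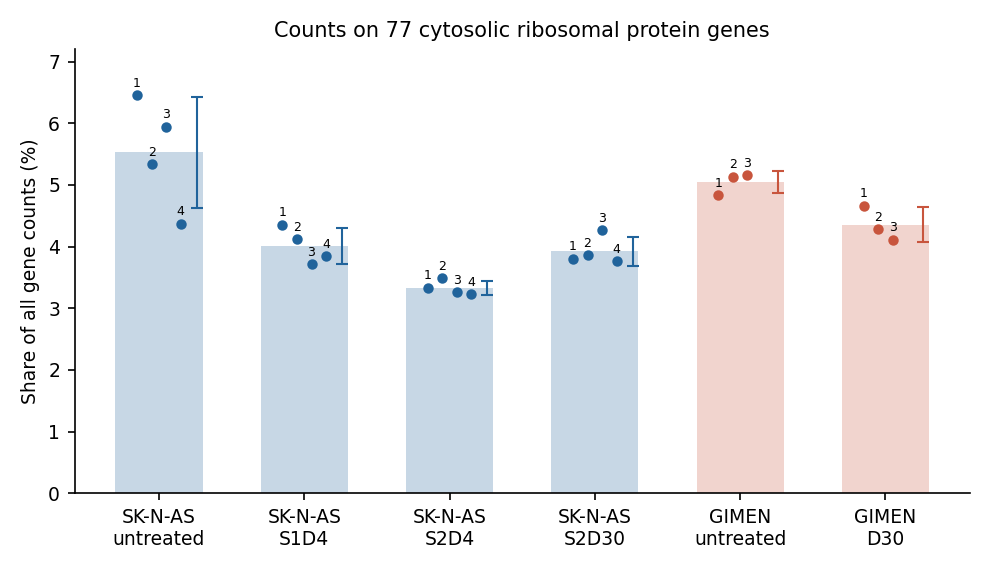
Share of all gene counts (%) that fell on the 77 cytosolic ribosomal protein genes, by group; bars are means, error bars SD, and points single libraries with their replicate number. The 4 untreated SK-N-AS libraries spread from 4.37% to 6.46%, wider than any other group, and the lowest group is S2D4 at 3.23% to 3.48%.

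Single libraries moved the whole set together. After scaling with edgeR's trimmed mean of M-values (TMM), untreated SK-N-AS library 4 was the lowest of its group for 77 of 77 members and library 1 the highest for 66. In S2D30, library 3 was the highest for 77 of 77 members. In untreated GIMEN, library 1 was the lowest for 74. The members therefore shared the error of their libraries, and 77 calls are not 77 independent measurements. Results against untreated SK-N-AS are given below with and without libraries 1 and 4. Untreated SK-N-AS library 4 correlated less well with its group than the others did (mean r of log2 values over all genes 0.9794, against 0.9848 to 0.9849). The same held for S2D4 library 4 (0.9682, against 0.9825 to 0.9829).

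The labelled cell type was checked on marker lists. All 8 mesenchymal markers exceeded 1 CPM (counts per 1e6, TMM-scaled over all 22 libraries) in every library of both lines. Untreated SK-N-AS also expressed adrenergic markers, summing to 1473 to 1672 CPM, above its mesenchymal sums. In GIMEN the sum was 408.9 to 433.9 CPM untreated and 232.5 to 275.1 CPM at D30. There 2 of the 8 adrenergic markers exceeded 1 CPM in every library, and TH had no counts. The adrenergic sum in SK-N-AS was 1208 to 1397 CPM in S1D4, 499.6 to 763 CPM in S2D4 and 177 to 222 CPM in S2D30. TH itself rose against untreated in S1D4 and S2D4 (log2 fold changes 6.77 and 4.75), the 1 marker of the list called higher there. In the same comparisons 4 and 7 of the 8 were lower, beside 22.4% and 32.2% of all genes. Of 6 leukocyte markers, PTPRC stood out in untreated SK-N-AS at 168, 174, 158 and 206 CPM, while CD3E had no counts in any SK-N-AS library. The part of these shifts in the ribosomal protein results was not tested, and in cultures measured in bulk, fewer cells of a type and less RNA per cell cannot be told apart.

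PP121 in low serum for 4 days went with a fall of nearly the whole set. Of the 77 members, 71 were lower in S1D4 than in untreated SK-N-AS and 0 were higher, by edgeR's quasi-likelihood test at an adjusted p under 0.05 over all genes. Of all 15810 genes tested, 22.4% were called lower and 17.6% higher. The median log2 fold change of the members was -0.57, against -0.01 over all genes. Every member had a negative log2 fold change, from -0.94 to -0.15, and in 36 members the groups did not overlap. Genes without overlap were counted among the members only, here and below. These counts therefore have no share of all genes to be read beside. Without untreated library 1 there were 60 lower members with a median of -0.45, and without library 4 there were 75 with a median of -0.68. When the trend of each library with transcript length and GC content was taken out, 62 were lower and the median was -0.37.

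RPS29, RPS12 and RPS20, all proteins of the small subunit, fell most. RPS29 stood at 135, 105, 112 and 93.4 CPM in the untreated libraries and at 66.2, 64.8, 47.6 and 57.3 in S1D4, with no overlap (log2 fold change -0.94 ± 0.15, adjusted p = 1.09e-04). RPS12 went from 260.5, 244, 246 and 158 CPM to 139, 127, 105 and 112 (log2 fold change -0.94 ± 0.14, adjusted p = 5.55e-05). RPS20 went from 654, 581, 624 and 417 to 339.6, 327, 271 and 303 CPM, again without overlap (log2 fold change -0.90 ± 0.13, adjusted p = 3.33e-05). The 40S genes had a median of -0.67 with 29 of 31 lower, and the 60S genes a median of -0.54 with 42 of 46 lower. The 6 members that were not called were RPS9, RPS4X, RPL18, RPL9, RPL3 and RPL4. RPL3, which lines the peptidyl transferase centre, stood at 1551, 1338, 1425 and 1009 CPM untreated and 1245, 1200, 1134 and 1163 in S1D4 (log2 fold change -0.20 ± 0.12, adjusted p = 0.211). RPL4, a wall of the exit tunnel, had the smallest change, from 1647, 1363, 1546 and 1174 to 1375, 1248, 1283 and 1340 CPM (log2 fold change -0.15 ± 0.11, adjusted p = 0.289). For both, the groups overlapped. RPS4X passed without untreated library 4 (adjusted p = 0.00839) or S1D4 library 1 (adjusted p = 0.0443).

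With bufalin added, in Neurobasal with B27, the set was again lower than in untreated cells. In S2D4, 64 of 77 members were lower than in untreated SK-N-AS and 0 higher, where 32.2% of all genes were lower and 30.9% higher. The member median was -0.61 on the log2 scale against -0.02 for all genes. The groups did not overlap in 47 members, which was not counted over all genes. There were 60 lower members without untreated library 1 and 72 without library 4, and 66 without S2D4 library 4. These comparisons use the same 4 untreated libraries as the S1D4 comparison, so they are not independent of it.

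RPL41, the shortest ribosomal protein, fell most, from 1259, 983, 1067 and 695 CPM to 489.9, 499.5, 422 and 527 in S2D4 (log2 fold change -1.09 ± 0.15, adjusted p = 1.32e-05). RPL29 went from 618, 504, 559.9 and 369 to 258, 264, 251 and 277 CPM (log2 fold change -1.005 ± 0.13, adjusted p = 3.17e-06). RPL31, which sits at the rim of the exit tunnel, went from 601, 628, 553 and 401 to 277, 293, 260.1 and 291 CPM (log2 fold change -0.9981 ± 0.12, adjusted p = 3.1e-06). In all 3 the groups stood apart. RPL3 and RPL4 again did not pass the test, with log2 fold changes of -0.13 (adjusted p = 0.367) and -0.07 (adjusted p = 0.575). Nor did the X-linked genes RPL10, RPL36A and RPL39, at -0.14, -0.21 and -0.35, while the X-linked RPS4X fell by 0.96. RPL39 was near the threshold, with an adjusted p of 0.0574, and it passed without untreated library 4 (0.00672), with upper-quartile factors (0.0298) and with a replicate block (0.0461). RPL10 passed without untreated library 4 (log2 fold change -0.28, adjusted p = 0.0346) and stood at 0.02 without library 1.

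After 30 days the set was lower as a whole but its members had spread out. In S2D30, 52 members were lower than in untreated SK-N-AS and 0 higher, where 36.5% of all genes were lower and 33.8% higher. The member median was -0.39, against -0.03 for all genes, and the range ran from -1.35 to 0.25. The interquartile range of the members was 0.476 log2 units here, against 0.195 in S1D4 and 0.336 in S2D4. In 21 members every S2D30 library lay below every untreated one, and in 1 every S2D30 library lay above, which was not counted over all genes. Leaving out untreated library 1 gave 36 lower and 2 higher members, and leaving out library 4 gave 61 lower. With the length and GC trend removed there were 42 lower and 5 higher, and the median was -0.23.

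RPS24, a small-subunit protein and Diamond-Blackfan anaemia gene, fell most. It had 634, 595, 572 and 367 CPM in the untreated libraries and 212, 209.5, 260 and 196 in S2D30, with no overlap (log2 fold change -1.35 ± 0.15, adjusted p = 5.9e-07). RPL27A went from 893, 792, 858 and 621 to 339, 359, 399 and 339.5 CPM (log2 fold change -1.18 ± 0.11, adjusted p = 7.03e-08). RPL41 stood at 435, 458, 507 and 424 CPM in S2D30 (log2 fold change -1.17 ± 0.16, adjusted p = 3.9e-06). RPL34 stood at 529.8, 478, 538 and 372 CPM untreated and 208, 220.4, 250.4 and 210.1 in S2D30 (log2 fold change -1.15 ± 0.12, adjusted p = 1.55e-07). Their pyrimidine tracts at the start, which most members have, were 14, 7, 5 and 8 bases long. At the other end, RPS9 and RPL9 had positive log2 fold changes that did not pass the test, at 0.25 (adjusted p = 0.245) and 0.24 (adjusted p = 0.27).

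**Figure D2:**
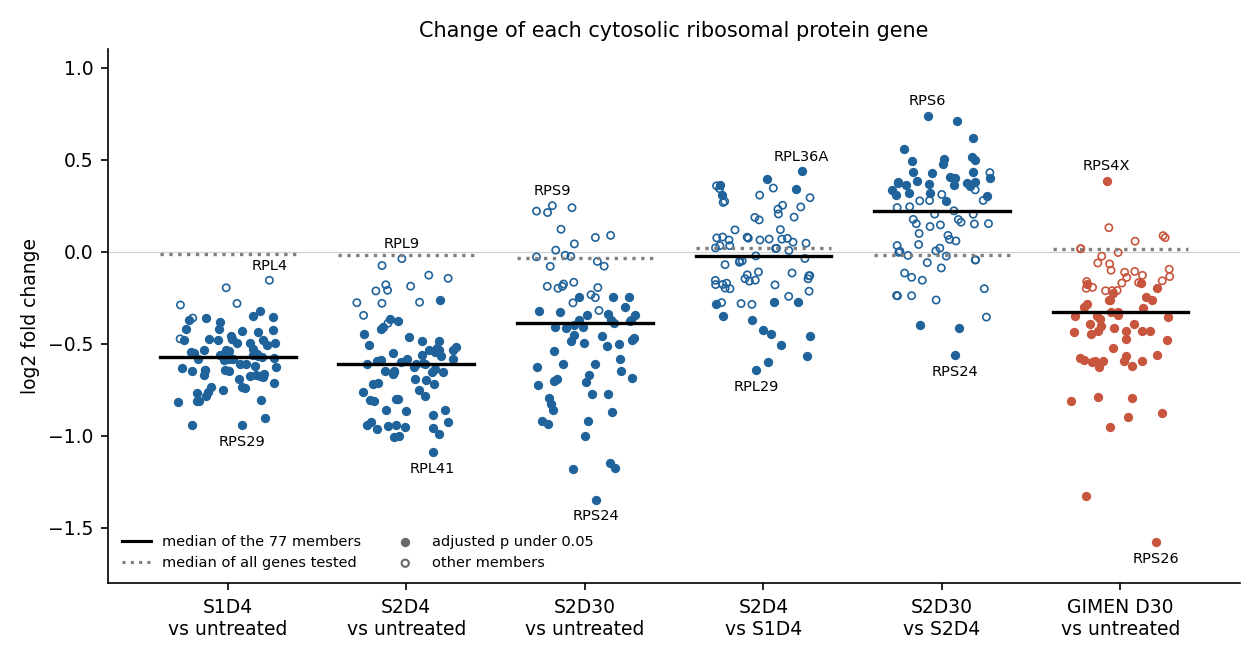
Log2 fold change of each of the 77 members in 6 comparisons; filled points passed an adjusted p of 0.05, open points did not, black lines are member medians and dotted lines medians of all genes tested. The member medians against untreated SK-N-AS are -0.57, -0.61 and -0.39, and the S2D30 members are spread from RPS24 at -1.35 to RPS9 at 0.25.

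The steps between the treated groups were smaller and went both ways. From S1D4 to S2D4, 12 members were lower and 5 higher, where 26.8% of all genes were lower and 28.3% higher, and the member median was -0.02 against 0.02 for all genes. RPL29, RPS4X and RPL15 fell most, by 0.64, 0.60 and 0.57 on the log2 scale (adjusted p = 3.85e-04, 0.00568 and 1.42e-04). RPS6 fell as well (log2 fold change -0.42 ± 0.14, adjusted p = 0.0191), a call lost without S1D4 library 1 (adjusted p = 0.0568). The 5 that rose were RPL36A, RPL10, RPS29, RPL38 and RPLP1, by 0.44 to 0.31 in that order of size. These small rises depended on the setting: with upper-quartile scaling 19 members were lower and 1 higher, and without S1D4 library 3 or S2D4 library 4 only 1 was higher. The count was 2 without S1D4 library 4 and 3 without S1D4 library 2 or S2D4 library 2.

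From S2D4 to S2D30, 30 members rose and 3 fell, where 24.4% of all genes rose and 26.9% fell. The member median was 0.22 against -0.02 for all genes. In 36 members every S2D30 library lay above every S2D4 library, and in 5 below, which was not counted over all genes. RPS6, the substrate of the S6 kinases that mTORC1 activates, rose most, from 272, 278, 251 and 217 CPM in S2D4 to 404, 423, 479.6 and 394 in S2D30 (log2 fold change 0.74 ± 0.14, adjusted p = 3.97e-04). RPL17 rose from 339.7, 357, 327 and 324 to 518, 544, 632 and 512 CPM (log2 fold change 0.71 ± 0.10, adjusted p = 3.15e-05). The groups were separate for both. RPS24, RPS26 and RPL34 fell over the same interval, by 0.56, 0.41 and 0.40 (adjusted p = 0.00496, 0.00489 and 0.00836). RPS24 went from 339.6, 333, 306 and 314 to 212, 209.5, 260 and 196 CPM. The rises rested in part on S2D30 library 3, which was the highest for every member: without it 17 members rose, and without S2D4 library 3 there were 19.

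The members with known roles were followed one by one. In untreated SK-N-AS, RPS6 stood at 589.8, 466, 498 and 332 CPM, and S1D4 had 376, 350, 309 and 322. Its log2 fold changes against untreated were -0.50 ± 0.14 in S1D4, -0.93 ± 0.14 in S2D4 and -0.19 ± 0.14 in S2D30 (SE; adjusted p = 0.00971, 3.04e-05 and 0.248). The S1D4 call was lost without untreated library 1 (log2 fold change -0.35, adjusted p = 0.0574). RPS6 at S2D30 did not pass the test, although without untreated library 4 it did (log2 fold change -0.32, adjusted p = 0.0186). RPLP0, the base of the P stalk and a common reference gene in PCR, had 2881, 2260, 2406 and 1660 CPM untreated and 1525, 1547, 1490 and 1301 in S2D4. It fell against untreated in each treated SK-N-AS group, by 0.53, 0.69 and 0.41 on the log2 scale (adjusted p = 0.00497, 3.31e-04 and 0.0129). The last of these calls was lost without untreated library 1 (adjusted p = 0.0874).

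RPL5 and RPL11 bind 5S rRNA, and in that complex they can hold MDM2, the ubiquitin ligase of p53. RPL11 had 629, 717, 691 and 502 CPM untreated, 435, 433, 379 and 404 in S1D4, 354, 382, 346 and 352 in S2D4 and 426, 458, 499 and 408 in S2D30. No treated library reached the untreated range, and the log2 fold changes were -0.65, -0.86 and -0.54 (adjusted p = 1.62e-04, 2.88e-06 and 2.49e-04). RPL5 had 697, 585, 612 and 459 CPM untreated, 374, 398, 357 and 359.5 in S2D4 and 501, 507, 599 and 505 in S2D30. Its values were -0.46 and -0.70 at the earlier steps (adjusted p = 0.00332 and 3.5e-05) and -0.19 in S2D30 (adjusted p = 0.121), where it passed without untreated library 4 (-0.29, adjusted p = 0.00709). From S2D4 to S2D30 both rose, RPL5 by 0.50 (adjusted p = 0.00105) and RPL11 by 0.32 (adjusted p = 0.0189). The RPL11 call was lost without S2D30 library 3 (adjusted p = 0.0685).

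RPS19 is the most often mutated gene in Diamond-Blackfan anaemia, a failure of red cell production caused by loss of a single copy of a ribosomal protein gene. RPS19 went from 909.5, 704, 881 and 593 CPM untreated to 409.5, 402, 447 and 420.5 in S2D30 (log2 fold change -0.92 ± 0.12, adjusted p = 4.34e-06). Of the 11 members fixed as genes of that disease, 11 were lower in S1D4, 11 in S2D4 and 7 in S2D30, beside 71, 64 and 52 of all 77 members and 22.4%, 32.2% and 36.5% of all genes. RPSA, also known as the laminin receptor precursor, went from 639, 494, 499.8 and 361 CPM to 343, 325, 275 and 276 in S1D4 and 309.7, 306, 339.9 and 302 in S2D30 (log2 fold changes -0.74 and -0.70, adjusted p = 4.55e-04 and 2.21e-04). RPS27A, made as a fusion with ubiquitin, fell in each treated SK-N-AS group, with log2 fold changes of -0.79, -0.71 and -0.77 (adjusted p = 1.56e-04, 1.44e-04 and 4.92e-05). RPS27, a small-subunit protein with a zinc finger, fell as well, at -0.80, -0.95 and -0.46 (adjusted p = 9.84e-05, 5.67e-06 and 0.00368).

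**Figure D3:**
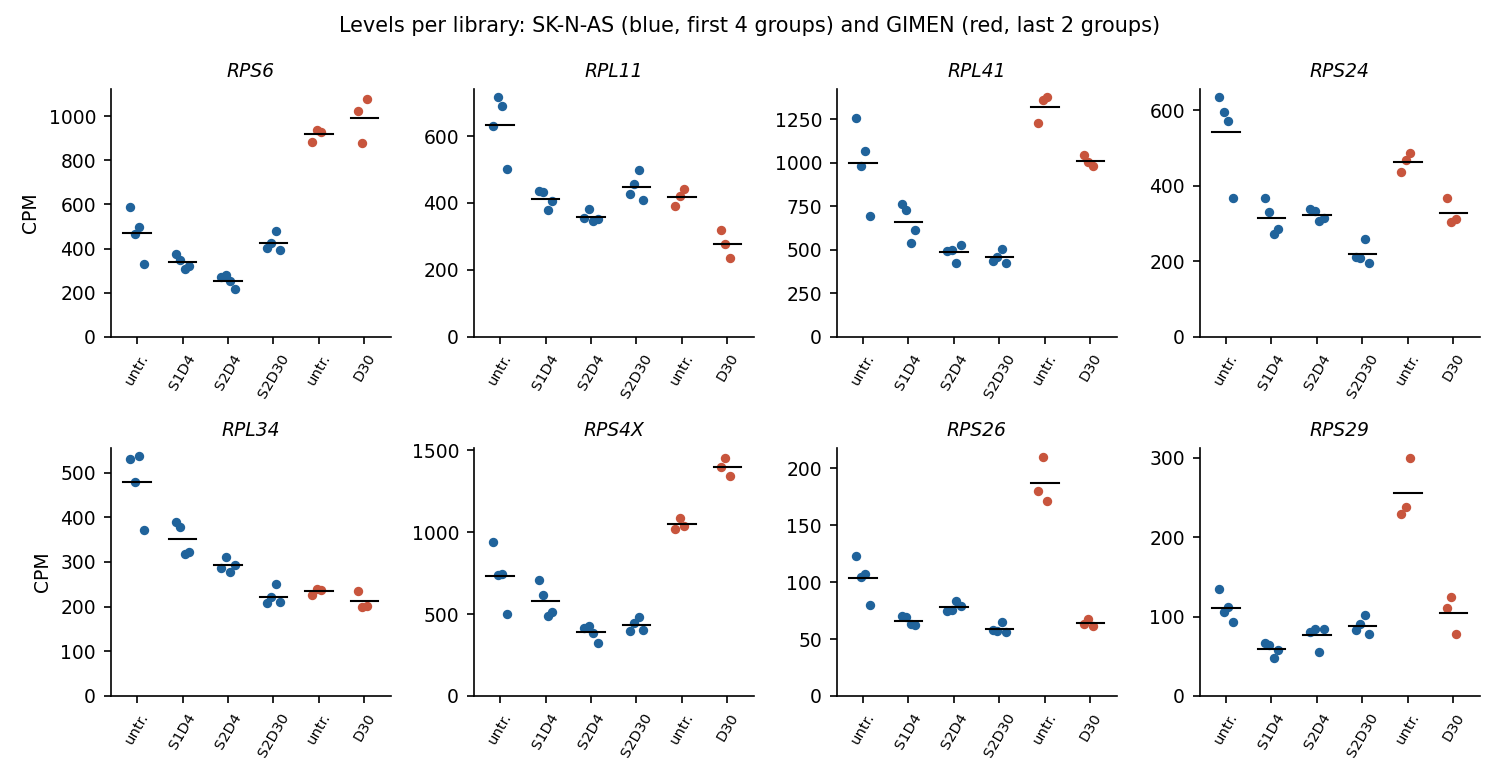
TMM-scaled CPM per library (linear axes from 0) of 8 members in the 4 SK-N-AS groups (blue) and 2 GIMEN groups (red); black lines are means. RPS6 and RPL11 are lowest among the SK-N-AS groups in S2D4, RPS24 and RPL34 are lowest in S2D30, and in GIMEN D30 RPS4X is higher, and RPS26 and RPS29 lower, than untreated.

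Members with and without a tract at the start were set side by side. In S1D4 the 46 members with a tract had a median of -0.57 with 44 lower, and the 16 with a listed start and no tract had a median of -0.53 with 12 lower. The 15 without a listed start had a median of -0.56 with 15 lower, and of all genes 22.4% were lower. In S2D4 the medians were -0.60 and -0.58, in S2D30 -0.38 and -0.45, and in GIMEN D30 -0.32 and -0.23. These are descriptions of overlapping distributions and carry no test. Members that share sequence with other genes were compared in the same way, since reads on shared sequence can be assigned to either. When 75-base words of the annotated transcripts were compared, 31 members shared at most 10% of their words with any other gene, and 46 shared more. In S1D4 the medians of these sets were -0.57 and -0.57, and in S2D30 they were -0.41 and -0.38.

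GIMEN cells treated for 30 days also had lower levels of most members. There were 50 members lower than in untreated GIMEN and 1 higher, where 36.0% of all 13517 genes were lower and 35.5% higher. The member median was -0.33 against 0.02 for all genes. In 45 members every D30 library lay below every untreated one, and in 2 above, which was not counted over all genes. The result depended on a trend of the libraries with transcript length and GC content. With that trend removed, 27 members were lower and 11 higher, and the median was -0.06. The 3 largest falls and the single rise, described next, kept their side of the threshold under that setting.

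RPS26, a small-subunit protein at the mRNA exit channel, fell most in GIMEN. It had 180.5, 210 and 171 CPM in untreated GIMEN and 63.2, 67.5 and 61.3 at D30, with a wide gap between the groups (log2 fold change -1.58 ± 0.08, adjusted p = 1.54e-08). RPS29 had 229, 238 and 299.6 CPM untreated and 110.3, 124 and 77.5 at D30, also without overlap (log2 fold change -1.32 ± 0.15, adjusted p = 1.06e-05). RPSA had 672, 716 and 735 CPM untreated and 374, 373 and 372 at D30, where the 3 libraries nearly coincided (log2 fold change -0.95 ± 0.06, adjusted p = 1.04e-07). The single member that rose was RPS4X, from 1021, 1089 and 1040 to 1397, 1456 and 1342 CPM (log2 fold change 0.39 ± 0.07, adjusted p = 2.52e-04). RPS6 had 885, 940.2 and 931 CPM untreated and 1023, 879 and 1081 at D30, overlapping ranges, and did not pass the test (log2 fold change 0.09 ± 0.08, adjusted p = 0.356). With the length and GC trend removed RPS6 passed as higher (log2 fold change 0.27, adjusted p = 0.00369). RPLP0 and RPL11 fell, by 0.59 and 0.62 (adjusted p = 6.68e-04 and 1.41e-04). RPS19 fell by 0.43 (adjusted p = 1.43e-04), a call lost when the length and GC trend was removed (adjusted p = 0.0766). RPL10 fell by 0.33 (adjusted p = 0.00779). RPL39 and RPS27A fell by 0.35 and 0.28 (adjusted p = 0.0318 and 0.00594), and both turned to about 0 with the trend removed (log2 fold changes 0.03 and 0.02). The RPL39 call was also lost without untreated library 2 or 3 or D30 library 2 or 3 (adjusted p = 0.0513 to 0.101). RPL5, RPL22 and RPS27 did not pass, at -0.21, -0.06 and -0.19. RPL5 passed with DESeq2's test (adjusted p = 0.0356), without the filter (0.00384) and without D30 library 1 (6.22e-04), and RPS27 without the filter (0.0162).

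The 30-day comparisons of the lines share no library. Of the 52 members lower in S2D30 and the 50 lower in GIMEN D30, 40 were lower in both, which is 76.9% of the former and 80% of the latter, and 15 were lower in neither. Of the 13088 genes tested in both lines, 2910 were lower in both. Since most members were lower in each line, a large overlap follows from the counts alone, and an excess over that was not tested. Across the 77 members the log2 fold changes of the lines were weakly related (Pearson r = 0.263, Spearman rho = 0.303), while over 13088 genes tested in both r was 0.556. The members spanned a narrower range, with interquartile ranges of 0.476 in S2D30 and 0.363 in GIMEN D30, against 1.45 and 1.08 for all genes tested. A narrow range lowers r, so the values of r cannot be set directly against each other. Genes are not independent replicates, and these values are descriptions. The difference of the 30-day change was then tested as an interaction over 14 libraries. It called 7 members with a lower change in GIMEN and 14 with a higher one, where 24.5% and 25.2% of all genes were called. The member median of the difference was 0.06, against 0.02 for all genes.

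RPS4X fell by 0.80 in SK-N-AS and rose by 0.39 in GIMEN, and of all members it had the highest difference (log2 scale, 1.20 ± 0.22, adjusted p = 2.48e-04). RPS4X encodes a 40S protein from a gene on the X chromosome that escapes inactivation. RPL34 and RPS24 followed, with differences of 0.99 ± 0.17 and 0.84 ± 0.22 (adjusted p = 1.44e-04 and 0.00459). RPL34 had 227, 239 and 237 CPM in untreated GIMEN and 235, 199 and 201 at D30, so that untreated GIMEN stood within the range of S2D30. In the other direction, RPS29, RPS26 and RPL38 had differences of -0.93, -0.70 and -0.67 (adjusted p = 0.00242, 0.00376 and 0.00514). RPL38 had 331, 312, 321 and 249.9 CPM in untreated SK-N-AS and 318, 338, 399.8 and 301 in S2D30, against 355, 388 and 433 CPM in untreated GIMEN and 291, 289.9 and 231 at D30. The count of 14 rose to 27 without untreated SK-N-AS library 4 and to 25 with the length and GC trend removed. It was 8 or 9 when untreated SK-N-AS library 1 or 3, S2D30 library 1, untreated GIMEN library 1 or 3, or GIMEN D30 library 1 was left out.

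Untreated, the lines differed in both directions. In untreated GIMEN, 32 members were higher and 8 lower than in untreated SK-N-AS, where 35.3% of 16246 genes were higher and 38.6% lower. The member median was 0.21, against -0.05 for all genes, and it was 0.31 without untreated SK-N-AS library 1 and 0.08 without library 4. RPS9 stood at 181, 166, 181 and 117 CPM in SK-N-AS and 527, 563 and 568 in GIMEN (log2 fold change 1.79 ± 0.13, adjusted p = 2.22e-09). RPL26 stood at 258, 244, 224 and 148 and 569, 592 and 602 CPM (log2 fold change 1.44 ± 0.15, adjusted p = 2.16e-07). RPL34 was the largest difference the other way (log2 fold change -1.02 ± 0.12, adjusted p = 1.17e-06), followed by RPL27A and RPL11 at -0.66 and -0.59 (adjusted p = 1.74e-04 and 5.56e-04). RPS6 was higher in GIMEN by 0.97 (adjusted p = 1.92e-05), while RPLP0 had 0.05 (adjusted p = 0.805) and turned to -0.10 with upper-quartile scaling or without untreated SK-N-AS library 4. Upper-quartile scaling moved the median of all genes by -0.15 in this comparison. Under it 24 members were higher and 14 lower, and the member median was 0.06 against -0.20 for all genes. Without untreated SK-N-AS library 4 there were 15 lower.

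RPL9 had the largest line difference (log2 fold change 3.5 ± 0.13, adjusted p = 1.82e-13), and it is uncertain. RPL9 stood at 42.9, 34.8, 39.7 and 28.9 CPM in untreated SK-N-AS and 395, 422 and 414 in untreated GIMEN. The pseudogene RPL9P9, whose sequence holds 81.8% of the 75-base words of RPL9, went the other way, at 735, 629.6, 689 and 477 CPM in SK-N-AS and 208, 214 and 221 in GIMEN. In SK-N-AS groups 92.6% to 94.5% of the reads on RPL9 and its pseudogenes were assigned to pseudogenes, against 34.4% and 33.7% in GIMEN. With pseudogene reads added to their parents, the line difference of RPL9 was -0.09 (adjusted p = 0.576). Under the same setting the other counts of members moved by at most 1. RPL23A also shared its reads, 34.0% to 39.2% of them assigned to pseudogenes in each of the 6 groups. The setting with pseudogene reads added took in only genes with pseudogene symbols of a member. RPL17, RPL36A and RPS26 shared 86.7%, 78.9% and 54.8% of their words with other genes. Those sharing most were RPL17-C18orf32, RPL36A-HNRNPH2 and AC004057.1, symbols that the setting did not cover. How reads were divided there was not tested. For RPL9 itself no treated SK-N-AS group passed the test, while RPL9P9 fell in S1D4 and S2D4 (log2 fold changes -0.57 and -0.52, adjusted p = 0.00121 and 0.00122).

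**Figure D4:**
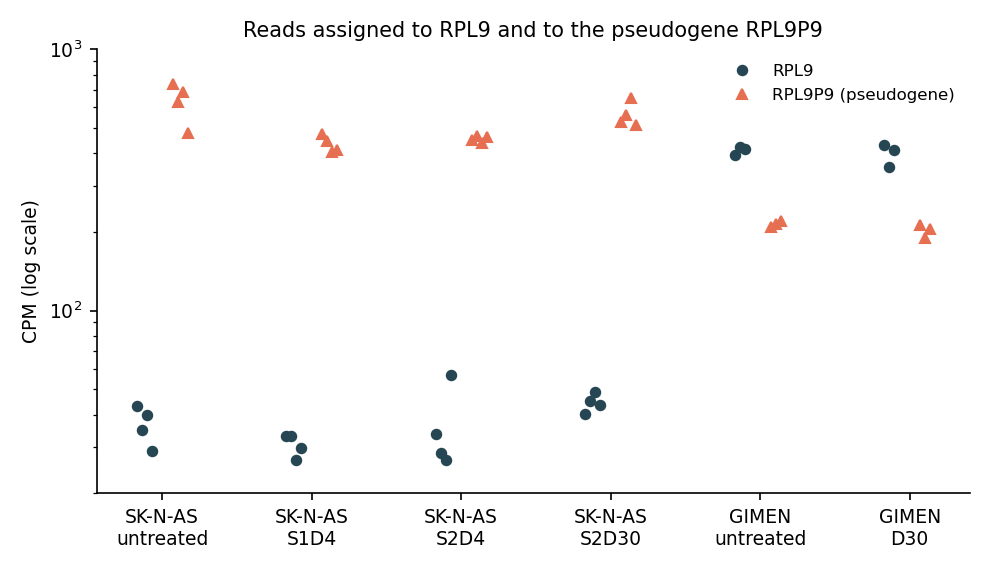
TMM-scaled CPM (log axis) of RPL9 (circles) and its pseudogene RPL9P9 (triangles) in each library. In every SK-N-AS library RPL9P9 lies above RPL9, and in every GIMEN library below it.

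Levels between genes were compared per kb of transcript, over the 73 members whose annotated principal transcript was at most 3000 bases. In untreated SK-N-AS the median was 798 CPM per kb, and RPL41, RPL8 and RPLP0 stood highest at 2134, 2092 and 1890. RPL9, RPL22 and RPL23A were lowest at 48.8, 82.6 and 119.6, and of these RPL9 and RPL23A share reads with pseudogenes. The medians of the treated groups were 513 in S1D4, 530.2 in S2D4 and 582 in S2D30. In GIMEN they were 939 untreated and 734 at D30. RPL41 stayed the highest in both GIMEN groups, at 2816 and 2153, but in S2D30 it was at 972.5 while RPL8 stood at 1812. The transcript lengths are those of the GENCODE annotation, which may differ from the one used for counting.

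Paralogs, which can replace a ribosomal protein in some cells, did not follow their parents in each case. RPL22L1, the paralog of RPL22, had 109, 89.6, 91.6 and 61.5 CPM in untreated SK-N-AS, 74.97, 72.2, 69.0 and 107 in S2D4 and 17.9, 20.9, 22.7 and 19.8 in S2D30. Its fall at S2D30 (log2 fold change -2.15 ± 0.17, adjusted p = 9.8e-09) compares with -0.25 for RPL22 (adjusted p = 0.0312). The RPL22 call was lost with DESeq2 size factors (adjusted p = 0.0633), DESeq2's test (0.0594), TMM factors without the members (0.0574) and without the filter (0.0772). It was also lost without untreated library 1 (0.165) or 3 (0.0795), or S2D30 library 1 (0.0848), 2 (0.0619) or 4 (0.0854). In GIMEN, RPL22L1 went from 145, 155 and 157 to 38.9, 36.5 and 34.8 CPM (log2 fold change -2.08 ± 0.07, adjusted p = 2.71e-10), while RPL22 had 271, 288 and 266 CPM untreated and 282, 244 and 280.1 at D30, with overlap. RPL39L, at 14.5 to 17.4 CPM in untreated SK-N-AS, fell in each treated group, by 1.04, 0.68 and 1.33 in SK-N-AS and 2.02 in GIMEN (adjusted p = 7.47e-06, 1.43e-04, 6.19e-08 and 7.44e-07). RPS27L, a p53 target, had 16.2, 19.1, 17.3 and 11.5 CPM in untreated SK-N-AS and 124, 132 and 134 in untreated GIMEN. It rose in S2D30 (log2 fold change 0.40 ± 0.16, adjusted p = 0.0335) and fell in GIMEN D30 (log2 fold change -1.08 ± 0.09, adjusted p = 8.08e-07). RPL26L1 and RPL36AL fell in S1D4, by 0.71 and 0.60, and in GIMEN D30, by 1.39 and 0.43. RPL7L1 rose by 0.27 in S2D4 (adjusted p = 0.00491) and fell by 0.48 in GIMEN D30 (adjusted p = 2.89e-05). RPL3L stayed at 0.26 to 2.01 CPM in every library, and RPL10L was at or near 0 counts. FAU, which encodes a 40S protein, rose by 0.33 in S2D4 (adjusted p = 0.0228) and had -0.14 and -0.18 in S1D4 and S2D30, where it did not pass.

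Genes for building ribosomes did not follow the ribosomal proteins in S2D4. Of 45 ribosome biogenesis genes, 18 were lower and 2 higher in S1D4, with a median of -0.21, where 22.4% of all genes were lower and 17.6% higher. In S2D4 only 4 were lower and 22 higher than in untreated cells, with a median of 0.24, while 64 of 77 ribosomal protein genes were lower, and 32.2% of all genes were lower and 30.9% higher. In S2D30, 25 were lower and 5 higher, with a median of -0.31, against 36.5% and 33.8% of all genes. From S2D4 to S2D30, 35 of them fell and 2 rose, where 30 ribosomal protein genes rose and 3 fell, and 26.9% of all genes fell and 24.4% rose. RRP12, a factor for export of pre-ribosomes, showed the largest rise in S2D4, from 118, 122, 142 and 130.3 to 330.1, 352, 364 and 412 CPM (log2 fold change 1.48 ± 0.09, adjusted p = 4.11e-10). EBNA1BP2 then fell most by S2D30, from 198, 189.9, 199 and 179.7 to 80.6, 84.5, 83.9 and 74.2 CPM (log2 fold change -1.247 ± 0.09, adjusted p = 8.76e-09). FBL, the methyltransferase of box C/D particles, was one of the 4 that were lower in S2D4 and fell most of the list in each SK-N-AS group, with log2 fold changes of -1.02, -1.18 and -1.32 (adjusted p = 1.47e-05, 7.73e-07 and 1.26e-07). MYC, a transcription factor that drives these genes in growing cells, had 69.5, 60.9, 83.1 and 72.5 CPM untreated, 110.4, 110.1, 110 and 98.5 in S2D4 and 54.6, 58.7, 60.7 and 53.1 in S2D30, and it rose and then fell against untreated (log2 fold changes 0.55 and -0.37, adjusted p = 5.9e-04 and 0.0098). MYCN reached 6.79, 8.62, 7.85 and 6.43 CPM in S1D4 from 1.11, 1.88, 0.81 and 1.404 untreated (log2 fold change 2.48 ± 0.31, adjusted p = 1.05e-05). In GIMEN D30, 40 of 45 biogenesis genes were lower and 2 higher, with a median of -0.83, against 36.0% and 35.5% of all genes, and BOP1 fell most (log2 fold change -1.66 ± 0.08, adjusted p = 7.11e-09). MYC went from 139, 142 and 148 to 64.7, 56.5 and 45.03 CPM there (log2 fold change -1.39 ± 0.10, adjusted p = 2.85e-07).

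**Figure D5:**
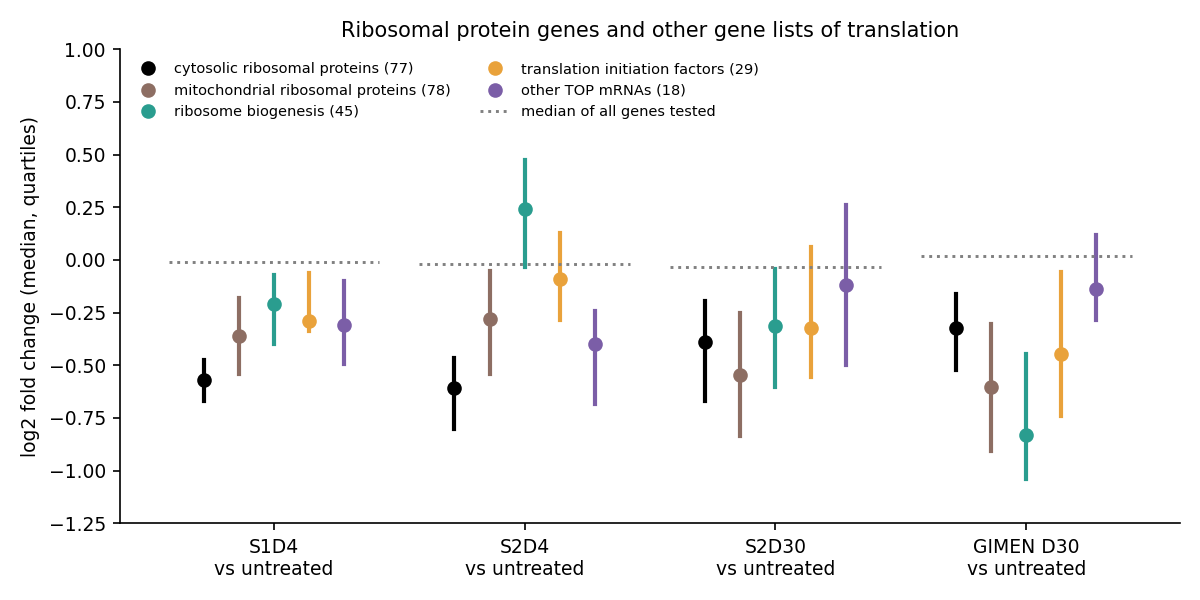
Median (points) and quartiles (lines) of the log2 fold change against untreated for the cytosolic ribosomal protein genes and 4 other lists, with the median of all genes dotted. In S2D4 the cytosolic ribosomal proteins lie at -0.61 and the ribosome biogenesis genes at 0.24.

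The counts of the further lists are to be read beside all genes, of which 22.4% were lower in S1D4, 32.2% in S2D4, 36.5% in S2D30 and 36.0% in GIMEN D30, and 17.6%, 30.9%, 33.8% and 35.5% higher. The proteins of the mitochondrial ribosome have separate nuclear genes. Of these 78, 47 were lower in S1D4, 40 in S2D4, 56 in S2D30 and 63 in GIMEN D30, with 1, 7, 3 and 2 higher. Their medians were -0.36, -0.28, -0.55 and -0.60. Of 29 translation initiation factors, 15, 10, 20 and 21 were lower in those comparisons and 0, 5, 4 and 6 higher, so that the S2D4 count of lower genes was near the share of all genes. EIF1, which scans for the start codon, rose in S2D4 from 454, 363, 406 and 317 to 866, 863, 851 and 1375 CPM (log2 fold change 1.32 ± 0.15, adjusted p = 7.67e-07), with library 4 the highest, and EIF3L fell (log2 fold change -1.05 ± 0.11, adjusted p = 5.25e-07). Of 18 other TOP mRNAs, 10, 13, 7 and 9 were lower and 1, 2, 6 and 4 higher, and both S2D30 counts were near the share of all genes. RACK1, which sits on the 40S subunit, fell most of these in S2D4 (log2 fold change -1.08 ± 0.12, adjusted p = 6.78e-07), and VIM rose most, from 1200, 1062, 839 and 648 to 4136, 4098, 3857 and 2095 CPM (log2 fold change 1.88 ± 0.21, adjusted p = 9.04e-07). NPM1 fell most in S1D4 (log2 fold change -0.87 ± 0.12, adjusted p = 1.9e-05), where EEF2 rose (log2 fold change 0.30 ± 0.09, adjusted p = 0.0156). HNRNPA1 fell most in S2D30 (log2 fold change -1.06 ± 0.10, adjusted p = 1.27e-07). In GIMEN D30, EEF1A1 rose most, from 10610, 11050 and 10710 to 15110, 15520 and 19350 CPM (log2 fold change 0.60 ± 0.10, adjusted p = 2.6e-04). Of 8 chaperones that escort single ribosomal proteins, 4, 3, 6 and 4 were lower and 0, 1, 0 and 0 higher, with the S2D4 count of lower genes near the share of all genes. PDCD2, which accompanies RPS2, fell most in S2D30 (log2 fold change -1.59 ± 0.09, adjusted p = 1.46e-10).

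Of 20 genes of the mTORC1 pathway and of TOP control, 7, 10, 10 and 11 were lower and 2, 6, 7 and 6 higher in S1D4, S2D4, S2D30 and GIMEN D30. Of all genes, 22.4%, 32.2%, 36.5% and 36.0% were lower and 17.6%, 30.9%, 33.8% and 35.5% higher, so that the counts of higher genes from S2D4 on were near the share of all genes. EIF4EBP1, which encodes the repressor 4E-BP1, fell from 151, 129, 149 and 106 CPM untreated to 38.2, 39.8, 43.9 and 37.1 in S2D30 (log2 fold change -1.79 ± 0.13, adjusted p = 2.03e-09). In GIMEN it went from 94.6, 96.7 and 97.7 to 30.6, 27.8 and 22.8 CPM (log2 fold change -1.86 ± 0.09, adjusted p = 8.9e-09). LARP1, the protein that binds TOP mRNAs, had 267, 296, 286 and 411 CPM untreated and 517, 486, 461 and 539 in S2D30 (log2 fold change 0.64 ± 0.11, adjusted p = 8.41e-05). RPS6KB1, which encodes an S6 kinase, rose in S2D4 (log2 fold change 0.33 ± 0.09, adjusted p = 0.00448) and had -0.03 in S2D30 (adjusted p = 0.793). SESN3, a stress-induced inhibitor of mTORC1, fell most of the list, with log2 fold changes of -1.27, -2.315 and -3.22 in the 3 SK-N-AS comparisons with untreated cells and -2.03 in GIMEN D30 (adjusted p = 0.00114, 1.88e-06, 4.39e-08 and 8.8e-06). RPTOR rose most in S1D4, RICTOR in S2D4, SESN2 in S2D30 and DEPTOR in GIMEN D30, by 0.47, 1.44, 1.89 and 2.63.

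The cell cycle list was lower in full, 10 of 10 genes in S1D4, S2D4, S2D30 and GIMEN D30. Of all genes, 22.4%, 32.2%, 36.5% and 36.0% were lower in these comparisons. MKI67, which marks cycling cells, had 186, 216, 133 and 267 CPM in untreated SK-N-AS. The S1D4 libraries had 70.7, 80.8, 30.3 and 27.1 CPM and the S2D4 libraries 18.8, 16.8, 22.7 and 24.3, and no S2D30 library exceeded 0.44 CPM. In GIMEN it went from 257, 229.9 and 259 to 2.82, 2.03 and 1.99 CPM. From S2D4 to S2D30, MKI67 fell further (adjusted p = 5.76e-08). Over that step 30 ribosomal protein genes rose and 3 fell, beside 24.4% and 26.9% of all genes.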

How the data were processed

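RNA-seq of total RNA, read as paired ends on a HiSeq X per the labels, gave 22 libraries in 6 groups. The authors deposited a single table of raw counts per gene, with 35237 rows; the aligner, counter, genome build, annotation and use of strand are not given in the sources used here, so reads from overlapping, antisense or near-identical genes may be misassigned. Totals ran from 16456484 to 37506800 counts. The members and gene lists were chosen with earlier results of these data known.

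Genes were filtered with filterByExpr (minimum count 10, minimum total 15), scaled by TMM and tested with edgeR 4.0.16 (quasi-likelihood test, R 4.3.3, limma 3.58.1), with Benjamini-Hochberg adjustment over all genes of a fit and a threshold of 0.05. The 16 SK-N-AS libraries formed 1 fit (15810 genes), the 6 GIMEN libraries 1 (13517 genes), and the 14 untreated and 30-day libraries of both lines another (16246 genes) for the comparisons of the lines. Values after ± are SD for group means and SE for log2 fold changes. Printed CPM values share 1 TMM scaling of all 22 libraries. Wilson 95% intervals were computed for shares. No pair of libraries held identical values.

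Genes named were 12 members fixed by role, the 3 largest rises and falls of each comparison with a mean of at least 10 CPM, the 3 highest and lowest per kb, members that moved against the majority, paralogs, MYC, MYCN, EIF4EBP1, LARP1, RPS6KB1, MKI67, and the largest change of each list. RPL3, RPL4, RPL9P9 and the marker genes were also named, some after their values were seen. A few genes that the rule names are not reported here. The steps were tested on simulated data. Alternatives were DESeq2 1.42.0 size factors and test, upper-quartile factors, TMM factors without the members, no filter, pseudogene reads added to their parents, a replicate block, a term for replicates 3 and 4, shares without mitochondrially encoded genes, and each library left out. Removal of a trend with transcript length and GC content was added after seeing the data.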

Additional observations from a re-analysis of the deposited data

Results flagged for a closer look

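In 5 of 124 groups of 4 libraries, taken over the member share and 30 named members, 1 library lay far from the other 3; chance alone marks about 5% of such groups. RPS12 in untreated SK-N-AS library 4 stood at 158.5 CPM, below the others, and in S2D30 library 3 at 202.4 CPM, above them. RPL5 in S2D30 library 3 stood at 598.8 CPM, above the others. These libraries were the lowest and the highest of their groups for all 77 members. RPS29 in S2D4 library 3, at 55.59 CPM, and RPSA in S2D4 library 4, at 305.5 CPM, each lay apart from the rest of their group.

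The 30-day change differed between the lines by the interaction test for 7 members with a lower and 14 with a higher change in GIMEN. Of all genes, 24.5% had a lower and 25.2% a higher change. The 3 lowest and 3 highest are given here. The log2 difference, GIMEN minus SK-N-AS, was -0.9297 for RPS29, -0.6978 for RPS26 and -0.667 for RPL38. It was 1.203 for RPS4X, 0.993 for RPL34 and 0.839 for RPS24. RPS27A and RPS19 were also called, at 0.50 and 0.51 (edgeR, adjusted p = 0.0383 and 0.0304), and both calls were lost without untreated SK-N-AS library 1 (0.0659 and 0.053). Both were also lost without untreated SK-N-AS library 3, S2D30 library 1 or 2, untreated GIMEN library 1 or 3, or GIMEN D30 library 1 or 3. The RPS27A call was lost as well without untreated SK-N-AS library 2, S2D30 library 4 or untreated GIMEN library 2. Dose, medium and the step before bufalin differed between the lines and cannot be told apart from the line.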

How the results depend on the processing

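The replicate numbers were not taken to pair the samples: over 27 pairs of groups and numbers, correlations of deviations ran from -0.101 to 0.293 and 4 exceeded 0.1. Of these, 3 lay between untreated SK-N-AS and S1D4 (replicates 1, 2 and 4 at 0.274, 0.266 and 0.293, with replicate 3 at 0.0436). With a replicate block the lower members numbered 71 in S1D4, 63 in S2D4, 51 in S2D30 and 47 in GIMEN D30, with medians of -0.5648, -0.5973, -0.3664 and -0.3334, and no count moved by over 1.5 times. In S2D30, higher members numbered 1 with DESeq2 size factors, 2 with TMM factors without the members, 2 with DESeq2's test and 5 with the length and GC trend removed. Upper-quartile factors gave 19 lower, 1 higher and a median of -0.1241 for S2D4 against S1D4, 2 higher in GIMEN D30 and 14 lower in untreated GIMEN against SK-N-AS. With the length and GC trend removed, the S1D4 median was -0.3664, S2D4 against S1D4 had 25 lower, S2D30 against S2D4 had 6 lower, GIMEN D30 had 27 lower, 11 higher and a median of -0.05518, and the interaction had 25 higher. RPS27A and RPL39 in GIMEN D30 turned to 0.02017 and 0.03137 under that setting. RPL9 between the untreated lines turned to -0.08538 with pseudogene reads added, which is how that setting is built; the other causes were not tested. Without mitochondrially encoded genes the member shares were 4.308% in S1D4, 3.486% in S2D4 and 5.251% in untreated GIMEN.

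With each library left out in turn, S2D30 had 0 to 2 higher members (2 without untreated library 1), GIMEN D30 had 1 to 3 higher and the untreated lines 6 to 15 lower. The interaction had 8 to 27 higher and a median of -0.03532 to 0.2128, below 0 without untreated SK-N-AS library 1 (-0.03532) or GIMEN D30 library 1 (-0.007335). S2D4 against S1D4 had 6 to 12 lower, 1 to 7 higher and a median of -0.0726 to 0.02843, above 0 without S1D4 library 1 (0.02843) or 2 (0.01137), or S2D4 library 1 (0.005069) or 3 (0.01326). S2D30 against S2D4 had 17 to 26 higher. All 77 members passed the filter on low counts.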
